A study of Mus musculus with 24 samples.

Results

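The macrophage genes Trem2, Gpnmb, Spp1, Lgals3, Apoe, Cd9, Fabp5, Olr1, Msr1 and Marco were followed through experimental autoimmune myocarditis (EAM) in the mouse heart. They were chosen by name, as genes that mark lipid-associated and scar-associated macrophages, with earlier results of these data known. All 10 were found by symbol, each with 1 Ensembl identifier, among 41388 genes counted. RNA was sequenced from a portion of the heart of wild type male BALB/c (BALB/cAnNCrl) mice that were 8 to 10 weeks old when immunized. EAM mice received a myosin heavy chain peptide in supplemented complete Freund's adjuvant with pertussis toxin, and control mice received the same adjuvants with PBS in place of the peptide. EAM and control mice were injected with 200 µl of emulsion on day 0 and again on day 7, with 100 µg of peptide in that of EAM mice. Pertussis toxin was given to all on day 0. There were 4 EAM and 4 control hearts at each of 10, 15 and 21 days (D10, D15 and D21) from the first injection, 24 in all. EAM hearts were no random sample of immunized mice, since inflamed tissue was preferred where there was any. Every heart was measured once, and no mouse was followed over time.

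Macrophages that take up lipid and debris from dying cells, in atheroma, fat, fibrotic liver and injured heart, switch on a shared set of genes. TREM2, a lipid-sensing surface receptor that signals through the adaptor TYROBP (DAP12), is needed for much of this program in several tissues. Scavenger receptors bring modified lipoproteins in, fatty acid binding proteins carry the lipid inside the cell, apolipoprotein E takes cholesterol out, and osteopontin (the product of Spp1) and galectin-3 (Lgals3) are secreted towards fibroblasts and the matrix. Apoe, Cd9 and Fabp5 are also expressed by other cells of the heart. In RNA from whole tissue, fewer cells of a type and less RNA per cell cannot be told apart.

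Levels are given as CPM, the reads of a gene relative to all reads of the library after TMM normalization over the 24 libraries, with 4 values in the order of hearts 1 to 4 of a group, or as mean ± SD of the 4 hearts. A gene is called induced when edgeR's quasi-likelihood test between the 4 EAM and the 4 control hearts of a day gave a Benjamini-Hochberg adjusted p under 0.01 over all genes tested and at least a 2-fold change. Fold changes are log2 values of EAM over control, with their standard error. Total counts were between 15814863 and 24980864 per library, and cardiomyocyte markers were abundant in every library. The 10 monocyte and macrophage markers summed to between 492 and 1103 CPM in D10 controls and 746 to 3078 CPM in D10 EAM hearts. At D15 the sums were 478 to 544 CPM against 3514 to 4811 CPM, and at D21 427 to 681 CPM against 1223 to 4174 CPM. EAM heart 1 of D10 and EAM heart 3 of D21 stood at the top and the bottom of their groups for these markers. The 4 D21 EAM libraries carry another library code than the other 20, so that the code and EAM cannot be told apart at D21. Their 5 adipocyte markers summed to between 0.221 and 7.25 CPM, with Lep at 0 in all 4, against 18.1 to 47.6 CPM in D21 controls. Against 18.1% of all genes induced at D15 and 4.13% at D21, markers of resident cardiac macrophages counted 2 of 8 induced at D15, and 0 induced and 1 repressed at D21, and those of monocytes and macrophages 10 of 10 and 5 of 10. The part of the library code and of the sampled tissue in the D21 results was not tested.

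The sequences around the transcription starts of 4 members are shown because a motif searched for lies inside them, with Spp1 shown at the first of its 2 starts. RefSeq promoters (GRCm38.p6, 250 bases before to 50 after the start) were found for 8 of the 10 members, and not for Fabp5 and Msr1. Printed are 130 bases before to 20 after the start, 5′ to 3′ on the strand of the gene, with matches to the motifs searched in capitals.
Trem2 (chr17:48346271-48346420, plus strand): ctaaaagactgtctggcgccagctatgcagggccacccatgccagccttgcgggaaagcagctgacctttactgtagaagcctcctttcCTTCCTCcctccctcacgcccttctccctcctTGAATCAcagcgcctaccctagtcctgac
Gpnmb (chr6:49036388-49036537, plus strand): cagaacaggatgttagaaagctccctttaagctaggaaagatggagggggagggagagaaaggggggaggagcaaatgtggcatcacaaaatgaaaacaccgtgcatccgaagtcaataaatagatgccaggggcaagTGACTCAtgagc
Spp1 (chr5:104434981-104435130, plus strand): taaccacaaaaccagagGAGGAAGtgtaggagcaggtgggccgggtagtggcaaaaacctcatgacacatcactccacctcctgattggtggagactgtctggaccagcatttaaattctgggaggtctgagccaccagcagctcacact
Olr1 (chr6:129507146-129507295, minus strand): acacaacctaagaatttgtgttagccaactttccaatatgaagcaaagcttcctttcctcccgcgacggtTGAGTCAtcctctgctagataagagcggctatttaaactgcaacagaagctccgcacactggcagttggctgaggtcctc
Both strands were searched for TGANTCA, an AP-1 site widened to any base in the middle, where the strict site has C or G. Searched too were GAGGAAG, a site of the type bound by PU.1, a factor of the myeloid lineage, and TTGCGCAA, a C/EBP-type site. The last was CACGTG, the E-box core bound by MiT/TFE factors of lysosomal genes. The widened AP-1 letters stand in the promoter windows of Trem2 and Olr1, before the start, and of Gpnmb, after it. They stand in 7.81% of 32851 promoters of the same length. Olr1 and Gpnmb have the strict letters, and Trem2, with A in the middle, has not. The PU.1-type letters stand in those of Trem2, where they are read on the opposite strand, of Spp1 and, outside the length printed for the others, of Marco, against 13.6% of all promoters. Neither the E-box (7.15% of all promoters) nor the C/EBP-type letters (0.183%) were found in a member, and no matches overlapped. Such a match describes letters and is no measurement of binding.

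At D10 no member was induced by edgeR's quasi-likelihood test, nor was any of the 15029 genes tested (0%). EAM and control hearts overlapped at D10 for all members tested but Olr1. At an unadjusted p under 0.05, 4 members were higher, against 9.71% of all genes. The likelihood ratio test, the exact test of edgeR and DESeq2 each induced 1 member at D10, Olr1, which entered the test only through its EAM hearts, against 0.299%, 0.266% and 0.319% of genes, limma-voom 0, against 0%, and the use of all 12 controls 4, against 4.07%. By D15, 7 of the 9 members tested were induced, against 18.1% of the 15693 genes tested. By D21, 6 of 9 were induced, against 4.13% of 15266 genes. None was repressed at any day, against 0% at D10, 12.9% at D15 and 1.16% at D21 of all genes. Marco had too few reads to be tested at any day. Olr1 entered the tests only through its EAM hearts, since its controls have fewer than 10 reads, whereas 8 members passed in all 4 controls of every day. Without Olr1, 6 of 8 were induced at D15 and 5 of 8 at D21. Median log2 fold changes of the 9 members tested were 0.54 at D10, 3.37 at D15 and 2.98 at D21, beside -0.01, 0.02 and -0.01 over all genes tested. At an unadjusted p under 0.05, 8 members were higher at D15, against 39% of all genes, and 8 at D21, against 25.2%. All 4 EAM hearts lay above all 4 controls for 1 member at D10, against 4.41% of all genes, for 7 at D15, against 34.6%, and for 7 at D21, against 17.8%. Olr1 is the 1 member at D10 and is among those at D15 and D21. It is also in the medians and in each count at an unadjusted p.

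Leaving out 1 heart of D15 gave 6 to 8 induced members, with 17.7% to 18.8% of all genes. At D21 the calls of all genes moved with single hearts, and those of the members with them. Without any one of the 4 controls 0 members were induced, with 0% to 0.0262% of all genes, and without EAM heart 1 also 0, with 0.0721%. Without EAM heart 2 there were 2 members and 0.275% of genes, without EAM heart 4 there were 5 and 2.57%, and without EAM heart 3 there were 7 and 10.3%. In these fits the log2 fold changes of the 6 induced members lay between 1.15, for Apoe without EAM heart 1, and 7.10, for Spp1 without EAM heart 3. The likelihood ratio test induced 7 members at D21, against 8.88% of genes, and 7 also without any one heart, against 6.99% to 11.3%. The exact test and DESeq2 gave 7 each, against 8.79% and 8.93%, and limma-voom gave 1, against 0.524%. With the replicate number as a block the count was 5, against 3.94%.

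**Figure D1:**
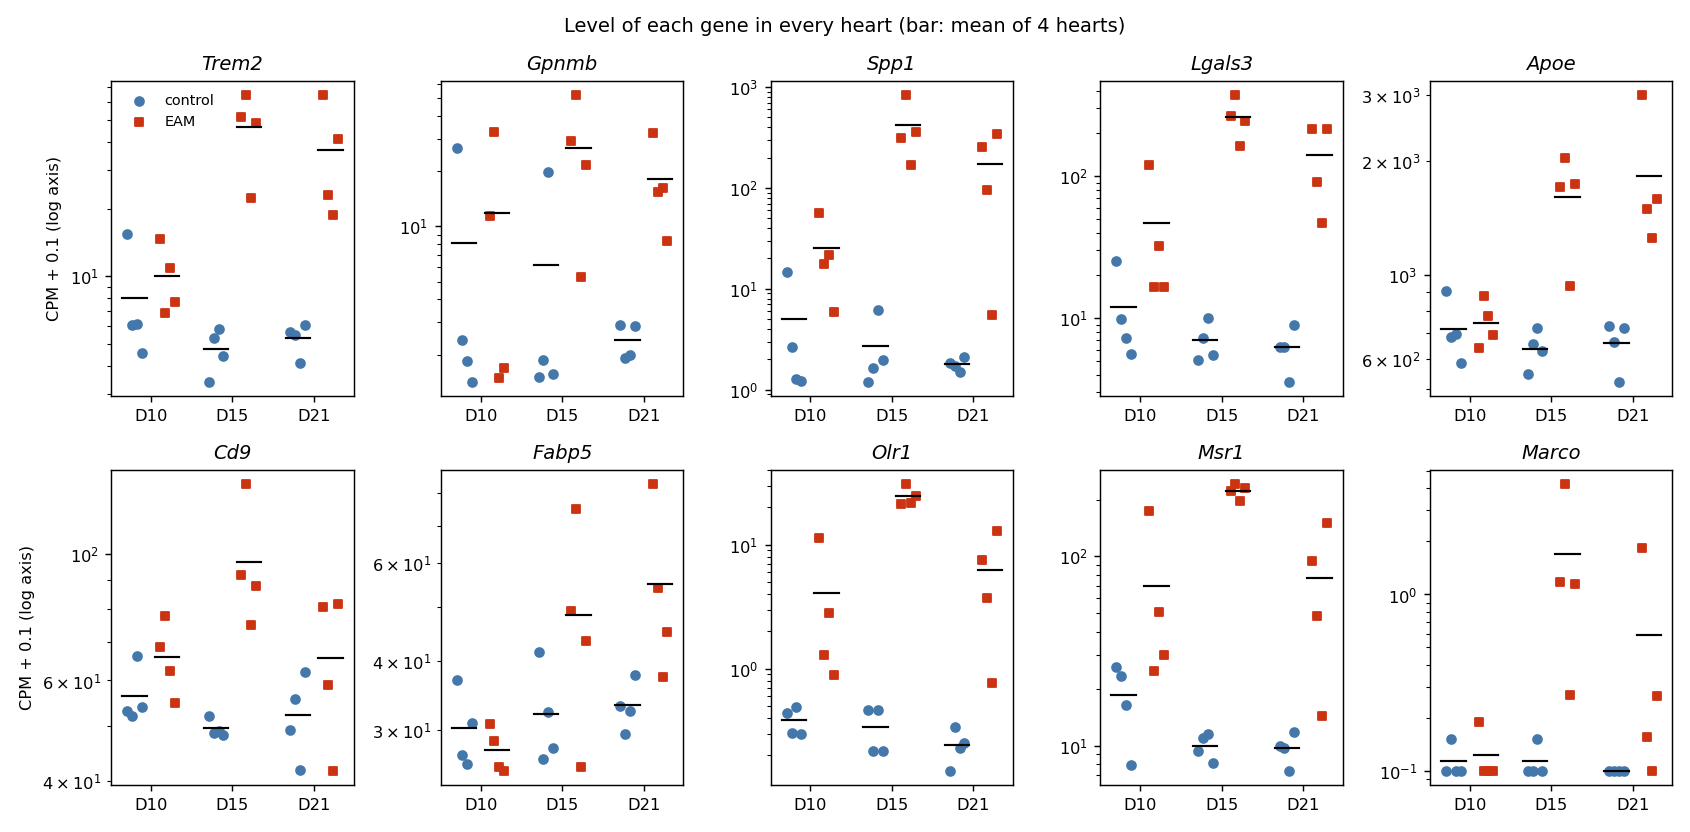
Level of the 10 genes in each of the 24 hearts, as CPM + 0.1 on a log axis, by day, with circles for control and squares for EAM hearts and a bar at the mean of 4. Trem2, Spp1, Lgals3, Apoe, Olr1 and Msr1 separate EAM from control at D15 and D21, and Gpnmb has single high control hearts at D10 and D15.

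Trem2 (ENSMUSG00000023992, chr17:48346401-48354147, GRCm38, plus strand), the receptor, was not called at D10 and was induced at D15 and D21. At D10 its level was 14.5, 6.74, 10.8 and 7.6 CPM in EAM and 15.4, 5.94, 6.01 and 4.43 CPM in control hearts. Control heart 1 was above every EAM heart of that day (log2 fold change 0.31 ± 0.41, adjusted p = 0.674). Without that control the fold change was 0.85, and without EAM heart 1 it was 0.06. At D15 the EAM hearts had 51.2, 64.2, 22.4 and 48.4 CPM and the controls 3.28, 5.2, 5.75 and 4.3 CPM, without overlap (3.37 ± 0.33, adjusted p = 1.6e-05). EAM heart 3 had less than the other EAM hearts of D15. At D21 the values were 64.1, 23.0, 18.8 and 40.9 CPM against 5.54, 5.38, 4.03 and 5.94 CPM (2.85 ± 0.4, adjusted p = 0.00508).

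The adaptors and kinases through which TREM2 signals, with enzymes that shed it and the membrane proteins Ms4a4a and Ms4a7, made a list of 12 genes, of which 0 were called at D10 (6 higher at an unadjusted p under 0.05, against 9.71% of all genes), 11 were induced at D15 and 7 at D21. Beside this and each list that follows stand the 18.1% of all genes induced and 12.9% repressed at D15, and the 4.13% and 1.16% at D21. Tyrobp, its adaptor, rose by 3.57 on the log2 scale at D15 (adjusted p = 2.1e-08) and by 2.7 at D21 (adjusted p = 0.00719). Hcst, the other adaptor (DAP10), rose by 4.4 and the kinase Btk by 3.89 at D15. The smallest fold changes were those of Vav3, an exchange factor, at 1.1, and of Adam10, a sheddase, at 0.85, which is under 2-fold. Of other receptors of the TREM, CD300 and PILR families, 8 of 8 tested were induced at D15 and 4 of 8 at D21. Trem1, an amplifying receptor of neutrophils and monocytes, rose by 6.73 at D15 and Cd300lf by 6.69, and the 2 smallest values were 4.38 for Cd300lb and 4.71 for Pilrb1. Neutrophil markers moved with them, 8 of 8 induced at D15 with sums of 605 to 1100 CPM in EAM and 19.2 to 90.8 CPM in control hearts, and the part of neutrophils in these values was not tested.

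Gpnmb (ENSMUSG00000029816, chr6:49036546-49070929, plus strand) encodes a transmembrane glycoprotein of lysosome-rich, lipid-laden macrophages. Its control hearts were not alike. At D10 the controls had 26.6, 2.31, 1.74 and 1.32 CPM and the EAM hearts 11.3, 32.6, 1.39 and 1.58 CPM. One control and one EAM heart held more than the rest of their groups. The difference was 0.54 ± 1.2 (adjusted p = 0.815), and without EAM heart 2 it was -0.73 and without control heart 1 it was 2.68. At D15 the controls had 1.41, 1.77, 19.7 and 1.47 CPM and the EAM hearts 29.0, 51.7, 5.19 and 21.4 CPM, so that control heart 3 lay inside the EAM range. Gpnmb was not called (2.16 ± 0.93, adjusted p = 0.0591), whereas without control heart 3 it was induced, with a log2 fold change of 4.17. At D21 the controls were even, with 2.8, 1.83, 1.88 and 2.77 CPM, and all EAM hearts were higher, with 32.3, 15.4, 16.1 and 8.28 CPM (2.98 ± 0.41, adjusted p = 0.00477). With the 12 controls of all days together it was 1.76 at D21 and not called.

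Spp1 (ENSMUSG00000029304, chr5:104435118-104441050, plus strand), the gene of the matrix ligand osteopontin, had the largest log2 fold changes among the 9 members tested, without Marco, at D15 and D21. EAM hearts of D10 held 56.2, 17.5, 21.6 and 5.81 CPM and controls 14.7, 2.56, 1.18 and 1.12 CPM, and the difference of 2.36 ± 0.93 did not pass (adjusted p = 0.328). That difference was 1.59 without EAM heart 1 and 3.93 without control heart 1. Control heart 1, which was high in Gpnmb and Trem2, was also the highest control in Spp1. It held 1103 CPM of the summed macrophage markers, the most of the D10 controls, and the part of this in its values was not tested. At D15 Spp1 stood at 310.0, 827, 170.2 and 359 CPM in EAM and 1.09, 1.54, 6.01 and 1.89 CPM in control hearts (7.32 ± 0.71, adjusted p = 1.51e-05). Here again control heart 3, high in Gpnmb, was the highest control. At D21 the EAM hearts spread from low to high, with 252, 95.1, 5.35 and 339 CPM, above controls of 1.73, 1.63, 1.4 and 2.0 CPM (6.72 ± 1.14, adjusted p = 0.00688). With the replicate number as a block, the log2 fold change at D21 was 5.98 and Spp1 was not called, and without EAM heart 3 it was 7.10.

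Osteopontin binds CD44 and integrins and is cut by matrix metalloproteinases and thrombin. Of 14 genes for these, 12 were tested, 7 were induced and 2 repressed at D15, and 3 were induced at D21. Cd44 rose by 3.59 at D15, Itgb3 by 2.42 and Itgav by 1.0, and at D21 Itgav had a log2 fold change of 0.04 (adjusted p = 0.893). The metalloproteinases Mmp12, the macrophage elastase, and Mmp9 rose by 7.24 and 4.98 at D15. The integrin subunits Itgb6 and Itga8 fell by 1.8 and 1.29 on the log2 scale.

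Lgals3 (ENSMUSG00000050335, chr14:47367751-47386160, plus strand) encodes galectin-3, a sugar-binding lectin released by macrophages. At D10 its level was 120.3, 16.5, 32.0 and 16.5 CPM in EAM and 25.1, 9.84, 7.14 and 5.49 CPM in control hearts (1.95 ± 0.75, adjusted p = 0.328). The D10 value rested on EAM heart 1, and without it was 0.85. At D15 EAM hearts reached 264, 371, 162 and 246 CPM against 5.0, 7.15, 9.95 and 5.42 CPM (5.28 ± 0.32, adjusted p = 7.81e-07), and at D21 214, 90.7, 46.5 and 214 CPM against 6.2, 6.15, 3.46 and 8.81 CPM (4.56 ± 0.56, adjusted p = 0.00469). The groups did not overlap at either day. Of 9 other galectins and partners, 4 were induced and 1 repressed at D15, and 0 of the 8 tested were called at D21, where 4 were higher at an unadjusted p under 0.05, against 25.2% of all genes. Mertk, a receptor for dying cells that galectin-3 can bind, rose by 2.54, Lgals3bp by 2.19 and Lgals1 by 1.05 at D15. Lgals4, a galectin of epithelia, fell by 2.07, and Lgals2 had a log2 fold change of -1.0 that was not called (adjusted p = 0.0446).

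Apoe (ENSMUSG00000002985, chr7:19696109-19699188, minus strand), whose protein carries cholesterol out of cells, was the most abundant member in every group. At D10 it had 639, 878, 776 and 691 CPM in EAM and 908, 684, 696 and 583 CPM in control hearts (0.04 ± 0.15, adjusted p = 0.886), and its sign turned to -0.04 without EAM heart 2 or without control heart 4. At D15 the EAM hearts had 1708, 2042, 936 and 1743 CPM and the controls 547, 656, 721 and 629 CPM (1.37 ± 0.22, adjusted p = 0.000392). At D21 the values were 2987, 1493, 1255 and 1589 CPM and 732, 664, 521 and 725 CPM (1.5 ± 0.28, adjusted p = 0.00899). No EAM heart of D15 or D21 overlapped a control. Fibroblast markers also moved, and 3 of 7 were induced at D15 and at D21. They summed to between 4615 and 10930 CPM in D15 EAM hearts and 1529 to 1814 CPM in D15 controls, and the part of each cell type in the Apoe values was not tested.

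Receptors and carriers that handle Apoe lipoproteins moved in both directions, with 10 of 16 induced and 3 repressed at D15, and 3 of 16 induced at D21. Apoc2, a cofactor of lipoprotein lipase, rose by 7.47 at D15, Lrp8 by 4.13, Lrp1 by 1.74 and the cholesterol exporter Abca1 by 1.77. Vldlr fell by 1.62 and Lpl, lipoprotein lipase, by 1.09. Both of these are also expressed in heart muscle, whose 7 cardiomyocyte markers summed to between 7020 and 18029 CPM in D15 EAM hearts and 24811 to 29496 CPM in D15 controls. The part of this change in the values was not tested.

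Cd9 (ENSMUSG00000030342, chr6:125460266-125494791, minus strand), a membrane-organizing tetraspanin that marks scar-associated macrophages in fibrotic liver, was induced at D15 with a fold change at the limit. It had 91.8, 132, 74.9 and 87.7 CPM in EAM and 52.0, 48.5, 49.0 and 48.1 CPM in control hearts at D15 (1.01 ± 0.15, adjusted p = 0.000268). Without EAM heart 2 the value was 0.82, under 2-fold. Cd9 overlaps genes on the opposite strand, Gm28809 with 205 reads in all libraries and Gm26728 with 3. At D10 and D21 the groups overlapped, with 65.9 ± 9.7 against 56.2 ± 6.66 CPM (SD, n = 4) and 65.6 ± 19.1 against 52.1 ± 8.71 CPM. Its D21 value was 0.36 ± 0.23 (adjusted p = 0.242). Of 10 other tetraspanins, 5 were induced and 1 repressed at D15 and 4 were induced at D21. Cd53 and Cd37, tetraspanins of leucocytes, rose by 3.98 and 3.18, and Tspan12 fell by 1.26. Cd81, which pairs with Cd9 in the membrane, had a log2 fold change of -0.53 (adjusted p = 8.03e-05) and Tspan7 of -0.77 (adjusted p = 5.36e-05), both under 2-fold and thus not called.

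Fabp5 (ENSMUSG00000027533, chr3:10012548-10016607, plus strand), a cytosolic carrier of fatty acids, was not called at any day. At D15 it had 49.0, 74.8, 25.7 and 43.3 CPM in EAM and 41.4, 26.5, 32.3 and 27.8 CPM in control hearts, and EAM heart 3 was below every control (0.63 ± 0.29, adjusted p = 0.0712). At D21 the values were 83.0, 54.0, 37.2 and 44.9 CPM and 33.1, 29.4, 32.4 and 37.7 CPM (0.75 ± 0.23, adjusted p = 0.0398). Fabp5 is uncertain because Gm6166, a processed pseudogene, aligns to its transcript over 409 bases at 98.3% identity and has 9216 reads over all libraries beside 18401 of Fabp5. Adding both, the D15 values were 75.9, 110.5, 39.8 and 65.5 CPM in EAM and 61.3, 40.3, 48.3 and 43.0 CPM in control hearts, which overlap as before. Of the other fatty acid binding proteins, Fabp3 of muscle and Fabp4 of endothelium and fat fell at D15, by 1.47 and 1.0 on the log2 scale, and 0 of the 2 tested at D10 and of the 3 tested at D15 and D21 rose by the quasi-likelihood test, with 0 also at an unadjusted p under 0.05. At D15, 3 of 7 cardiomyocyte and 1 of 6 endothelial markers were repressed, against 12.9% of all genes, with endothelial sums of 703 to 786 CPM in EAM and 1031 to 1351 CPM in control hearts, and their part in the values of Fabp3 and Fabp4 was not tested. Fabp7 had a log2 fold change of 0.89 at D15 (adjusted p = 0.144).

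The scavenger receptors Olr1 and Msr1 had the narrowest spread among D15 EAM hearts relative to their mean. Olr1 (ENSMUSG00000030162, chr6:129485244-129507165, minus strand), the lectin-like receptor LOX-1 for oxidized lipoprotein, was close to absent in control hearts. At D10 it was the only member in which the 4 EAM hearts, with 11.3, 1.19, 2.73 and 0.792 CPM, all lay above the 4 controls, with 0.343, 0.205, 0.393 and 0.198 CPM. The log2 fold change was 3.78 ± 0.93 (adjusted p = 0.328). Without EAM heart 1 it was 2.41. At D15 Olr1 reached 21.2, 30.7, 21.6 and 24.5 CPM, against 0.365, 0.118, 0.363 and 0.118 CPM, with 6.63 ± 0.27 (adjusted p = 7.47e-08). At D21 it was 7.49, 3.65, 0.669 and 12.9 CPM against 0.0509, 0.24, 0.131 and 0.154 CPM (5.4 ± 0.94, adjusted p = 0.00719). Its controls held between 1 and 7 reads each, so the size of these ratios is imprecise.

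Msr1 (ENSMUSG00000025044, chr8:39581685-39642673, minus strand), the class A scavenger receptor of macrophages, followed Olr1. At D10 it had 175, 24.5, 50.9 and 30.0 CPM in EAM and 26.0, 23.3, 16.2 and 7.8 CPM in control hearts (1.92 ± 0.65, adjusted p = 0.328), a difference that was 0.92 without EAM heart 1. At D15 it was 222, 241, 196 and 231 CPM against 9.28, 10.9, 11.4 and 7.95 CPM (4.53 ± 0.13, adjusted p = 1.43e-08). At D21 the EAM values of 94.2, 48.6, 14.3 and 149 CPM all lay above controls of 9.82, 9.65, 7.27 and 11.6 CPM, but the test missed its limit (3.04 ± 0.63, adjusted p = 0.0111). Without EAM heart 3, Msr1 was induced at D21, with 3.37.

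Marco (ENSMUSG00000026390, chr1:120474538-120505024, minus strand), a scavenger receptor for bacteria and particles, was rare. Summed over 4 hearts it had 2 reads in EAM and 1 in control hearts at D10, 175 and 1 at D15, and 39 and 0 at D21. The D15 reads came from EAM hearts 1 to 4 in the numbers 26, 118, 4 and 27, which gives a ratio of pooled reads of 124 with a 95% counting interval of 22.0 to 4927. At D21, 35 of the 39 reads came from EAM heart 1, and with 0 reads in the controls the 95% counting interval of the ratio of pooled reads starts at 11.6. A count of 0 allows up to 0.105 to 0.201 CPM in a single library, and such intervals and floors cover counting error only.

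Of 12 other scavenger receptors, 3 were induced and 2 repressed at D15 and 1 was induced at D21, shares near those of all genes (18.1%, 12.9% and 4.13%). Cxcl16, a chemokine that is also a receptor for oxidized lipoprotein, rose by 3.2 at D15 and 2.56 at D21. Scara3 rose by 1.47, Scara5 fell by 1.21 and Cd36, the fatty acid transporter of muscle and macrophages, fell by 1.08 at D15.

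**Figure D2:**
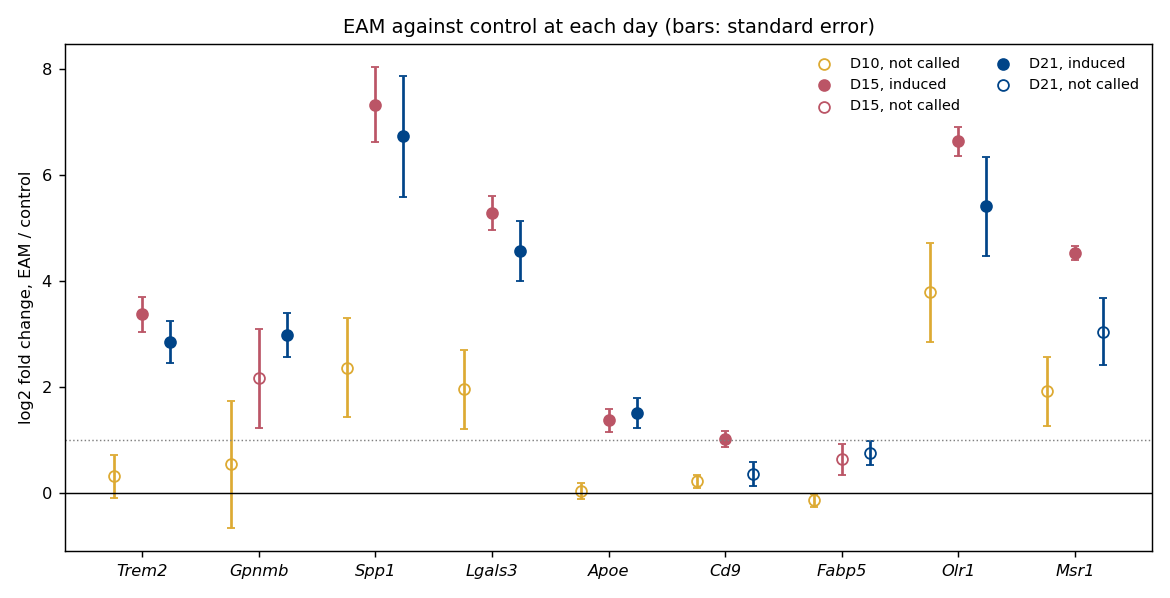
Log2 fold change of EAM over control for the 9 members tested, by day, with bars for the standard error, filled marks for induced genes and open marks for genes not called. The dotted line marks a 2-fold change. Spp1 reaches 7.32 at D15, and Cd9 and Fabp5 stay near the line or under it.

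The wider lipid-associated program, listed without the 10 members, had 19 of 28 genes induced and 4 repressed at D15, 14 of 27 induced at D21 and 0 of 26 called at D10, where 11 were higher at an unadjusted p under 0.05, against 9.71% of all genes. Among all genes 18.1% were induced and 12.9% repressed at D15 and 4.13% induced at D21. Mmp12 and Cd5l, a macrophage survival factor, rose most at D15, by 7.24 and 6.6. The lysosomal marker Cd68 rose by 3.59 ± 0.28, and among the 4 repressed genes Syngr1 fell by 1.21 and Lpl by 1.09. The MiT/TFE factors, which drive lysosomal genes and Gpnmb, differed among themselves. Tfec, the form of macrophages, rose by 5.87 at D15 and 4.31 at D21 and Tfe3 by 1.21 at D15. Tfeb and Mitf had -0.29 and -0.36 at D15, both under 2-fold.

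The order of levels was compared per kilobase of exon. In D21 controls Apoe led with 309 ± 45.9 CPM per kilobase (SD, n = 4), before Cd9 with 25.5 ± 4.26 and Fabp5 with 9.29 ± 0.95. Lgals3 followed with 3.31 ± 1.18, Msr1 with 1.51 ± 0.282, Trem2 with 1.06 ± 0.168 and Spp1 with 1.03 ± 0.15, and the ranges of the last 3 overlapped in this order. Gpnmb had 0.356 ± 0.0823 and Olr1 0.0403 ± 0.0218 CPM per kilobase. In D15 EAM hearts Spp1, with 253 ± 173, stood after Apoe, with 752 ± 221, and before Lgals3, with 140.3 ± 46.1, although the range of Spp1 overlapped both. Cd9 with 47.3 ± 12.1 and Msr1 with 35.1 ± 3.07 came next and overlapped. Fabp5 had 13.5 ± 5.69, Trem2 9.41 ± 3.54, Olr1 6.87 ± 1.23, Gpnmb 4.11 ± 2.97 and Marco 0.835 ± 0.903 CPM per kilobase. Among these last 5, neighbours overlapped.

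**Figure D3:**
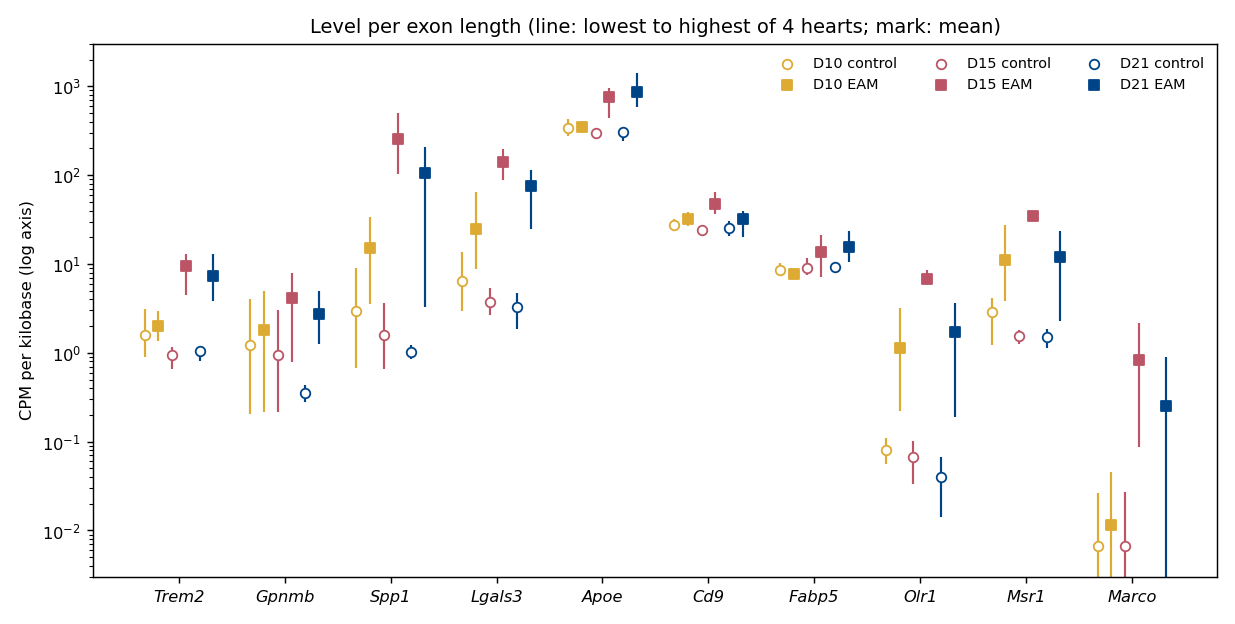
Level of each gene per kilobase of exon, in CPM per kilobase on a log axis, in the 6 groups, with lines from the lowest to the highest of 4 hearts and a mark at the mean, and with lines cut at the lower edge where a heart had 0 reads. Apoe is the highest gene in all groups, and by its mean Spp1 goes from place 7 of 10 in D21 controls to place 2 in D21 EAM hearts. There its range of 3.25 to 206 overlaps that of Lgals3, 25.0 to 115, and of lower genes.

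To set the members beside the macrophage genes of the same heart, the mean log2(CPM + 1) of the 10 monocyte and macrophage markers was subtracted from each member. Relative to these genes, all 4 EAM hearts lay above all controls for Spp1, Lgals3, Olr1 and Msr1 at D15, against 1.2% of all genes tested, for Spp1 and Lgals3 at D21, against 0.924%, and for Msr1 at D10, against 0.126%. The D15 differences were 3.51 for Spp1, 1.76 for Lgals3, 1.09 for Msr1 and 1.08 for Olr1 on the log2 scale. Trem2 and Gpnmb overlapped between EAM and control hearts at every day, with Trem2 differences of -0.58 at D10, -0.27 at D15 and 0.43 at D21. Apoe, Cd9 and Fabp5 lay below at D15, as did 96.6% of all genes tested, and Cd9 and Fabp5 at D21, as did 91.9%. Marco also lay below at both days, but its controls held 0 or 1 read each, so that the 1 added to CPM set their values. No member lay below at D10, against 2.11%. With a pseudocount of 0.1 in place of 1, Olr1 differed by 2.89 at D15 and was above all controls at all 3 days, and Marco overlapped at D15 and D21.

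**Figure D4:**
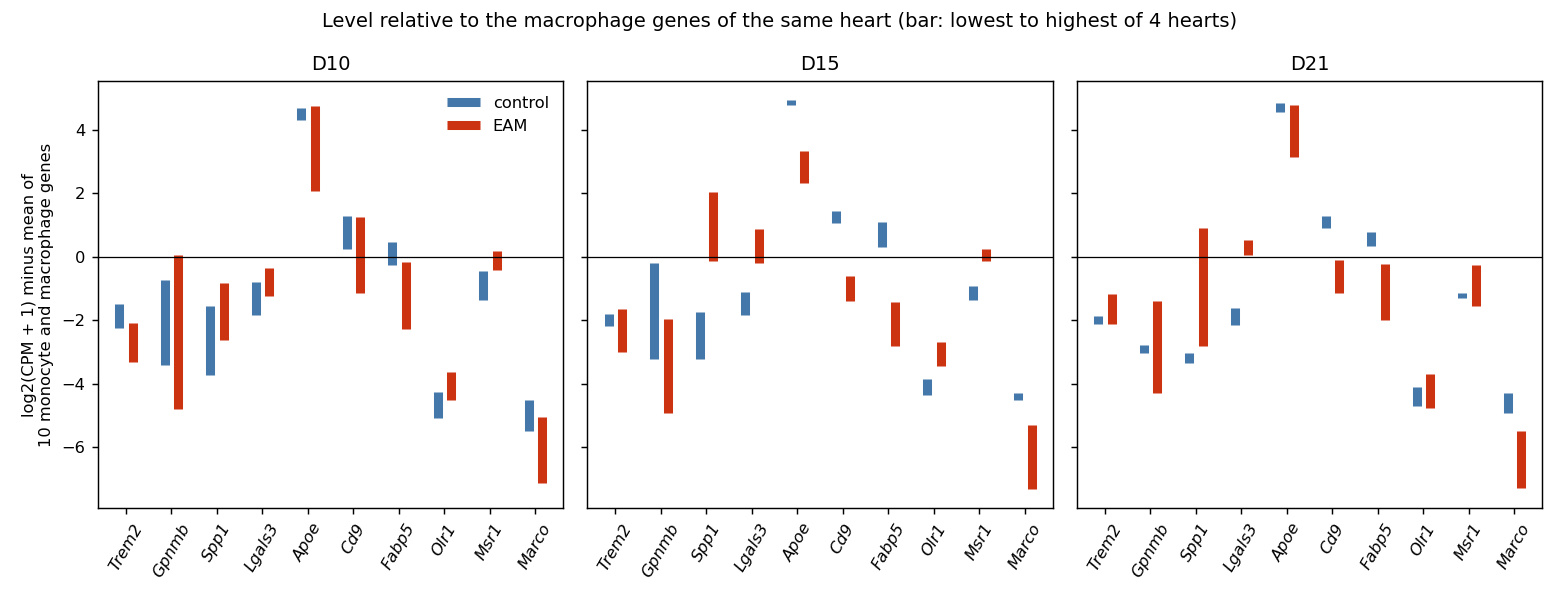
Log2(CPM + 1) of each gene minus the mean of 10 monocyte and macrophage genes of the same heart, with bars from the lowest to the highest of 4 control or 4 EAM hearts at each day. At D15 the EAM bars of Spp1, Lgals3, Olr1 and Msr1 lie above their control bars, and those of Trem2 and Gpnmb overlap them.

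Within groups, single hearts were low in nearly all members, but not to the same degree. EAM heart 3 of D15 was the lowest of its group for 9 of 10 members, all but Olr1. Its level relative to the mean of the other 3 hearts was 0.153 for Gpnmb, 0.341 for Spp1, 0.41 for Trem2 and 0.511 for Apoe, and 0.846 for both Olr1 and Msr1. Of the genes that stand for leucocytes and macrophages, Ptprc was at 244 CPM against 256 to 306 CPM in the other 3, Cd68 at 94.2 against 182 to 234, Csf1r at 423 against 548 to 594 CPM, and Adgre1 at 96.5 CPM was also the lowest of the 4. This heart also had the lowest sum of fibroblast markers, 4615 CPM, and the highest of cardiomyocyte markers, 18029 CPM, of its group, and their part in these values was not tested. EAM heart 3 of D21 was the lowest of its group for 9 of 10 members, all but Gpnmb. Here the level relative to the mean of the other 3 was 0.0234 for Spp1, 0.0835 for Olr1, 0.147 for Msr1, 0.44 for Trem2, 0.621 for Apoe and 0.863 for Gpnmb, and the sums of macrophage and fibroblast markers, 1223 and 3376 CPM, were again the lowest and that of cardiomyocyte markers, 29860 CPM, the highest. EAM heart 1 of D10 held the highest Olr1, Msr1 and Lgals3 of its group with 194 CPM of Ptprc, against 27.7 to 56.7 CPM in the other 3, but its Apoe, at 639 CPM, was the lowest.

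Correlations of log2(CPM + 1) over the 24 hearts, after subtracting the mean of each group, describe how members went together. These points share libraries and their depth, and their cell makeup. Msr1 went with Olr1 (Pearson r = 0.91), with Lgals3 (0.91) and with Ptprc (0.93), while Gpnmb had 0.10 with Olr1, 0.16 with Msr1, 0.06 with Ptprc, 0.23 with Csf1r and 0.45 with Cd68. Gpnmb was nearest to Apoe (0.61), Fabp5 (0.55) and Trem2 (0.54), and its r with Trem2 was 0.33 without the 2 hearts farthest from the median of Gpnmb. Apoe had 0.79 with Trem2, 0.73 with Fabp5, 0.20 with Ptprc, 0.45 with Csf1r and 0.65 with Cd68. Spp1 had 0.86 with Lgals3 and 0.80 with Trem2.

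**Figure D5:**
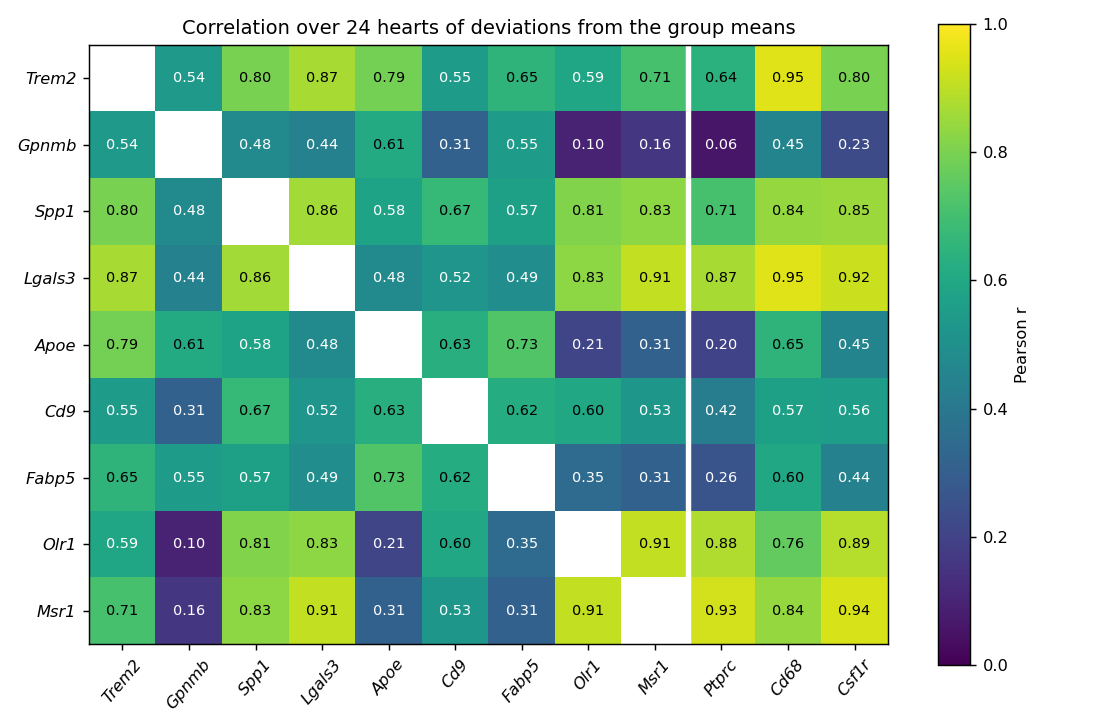
Pearson r over 24 hearts between the deviations of log2(CPM + 1) from the group means, for 9 members against each other and, right of the white line, against Ptprc, Cd68 and Csf1r. Msr1 and Olr1 reach 0.93 and 0.88 with Ptprc, and Gpnmb has 0.06.

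By this r over 24 hearts, the 3 genes most like each member were taken from 14217 genes that averaged 1 CPM or more, and 2 of them are given for Spp1 and Msr1. Trem2 was nearest to Cd68 (0.95, and 0.95 without the 2 farthest hearts), then Tmem19 and Uap1l1. Gpnmb was nearest to Atp6v0d2 (0.84, and 0.81 without 2 hearts), a subunit of the proton pump of osteoclasts and macrophages, then Clip3 and Numbl. Spp1 went with Efemp2 (0.92) and Cers5, and Lgals3 with Cd84 (0.97), Ctss and Lyz2. Apoe was nearest to Pdgfrl (0.93), Mfap2, a protein of elastic microfibrils, and Itgb5. Cd9 went with Vkorc1 (0.89), Spire1 and Desi1, and Fabp5 with its copy Gm6166 (0.95), Ppic and Vat1. Olr1 was nearest to Serpinb2 (0.98), Slc16a3 and AA467197, and Msr1 went with Timp1 (0.98) and Tlr2. Marco, under 1 CPM on average, was left out.

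Whether the effect of EAM differed between days was tested in a fit of all 24 hearts. From D10 to D15 the effect rose for 4 of 10 members, against 5.38% of 16318 genes. These 10, here and for the other days, include Olr1 and Marco, which entered this fit only through their EAM hearts. Marco, too rare for the tests of single days, differed by 5.71 ± 5.22 and was not called. Trem2 rose by 3.01 ± 0.58 (adjusted p = 0.00185), Spp1 by 4.92 ± 1.35 (adjusted p = 0.00706), Lgals3 by 3.28 ± 0.86 (adjusted p = 0.00556) and Apoe by 1.28 ± 0.34 (adjusted p = 0.00558). Msr1 differed by 2.56 ± 0.8 (adjusted p = 0.0144) and Olr1 by 2.79 ± 1.38 (adjusted p = 0.1), and neither was called. At an unadjusted p under 0.05 the effect rose for 6, against 24% of genes. Without D10 EAM heart 1, 6 members were called, against 12.2% of genes. Only 1 was called without D10 EAM heart 3 or 4, D10 control heart 1, D15 EAM heart 1, 2 or 4, or D15 control heart 1, 2 or 4, with 2.98% to 3.87% of all genes, and 2 without D10 EAM heart 2, with 2.99%. No effect fell, against 7.35% of genes.

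From D15 to D21 no member's effect was called as different by the quasi-likelihood test, against 2.74% of genes that rose and 0.919% that fell. The likelihood ratio test also gave 0, against 3.95% and 1.54%, as did limma-voom, against 2.21% and 0.919%. At an unadjusted p under 0.05, 1 member fell, against 17.3% of genes, namely Cd9 with -0.64 ± 0.26 (adjusted p = 0.0734). The estimates were -0.51 ± 0.57 for Trem2, 0.83 ± 1.48 for Gpnmb, -1.24 ± 1.55 for Olr1 and -1.49 ± 0.8 for Msr1, each with a wide error. From D10 to D21, 0 were called, against 0.0735% of genes that rose and 0.735% that fell, and limma-voom also gave 0, against 0.0245% and 0.539%. The likelihood ratio test gave 2, against 0.49% of genes that rose, as did leaving out D21 EAM heart 3, against 0.404%, and 5 rose at an unadjusted p under 0.05, against 8.52% of genes. In controls, 0 of 10 members were called between any days, against 0.0919%, 0.214% and 0% of all genes, and 0 had an unadjusted p under 0.05, against 6.69%, 12.2% and 2.37% of all genes at that p for D15 against D10, D21 against D10 and D21 against D15. For Marco, with 0 or 1 read in each control heart, and Olr1, with 1 to 7, this comparison could hardly show a change. Both entered the fit only through their EAM hearts.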

How the data were processed

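RNA from 24 hearts was sequenced by the authors as 75 bp paired reads from a directional library kit. According to the methods, the authors aligned them to GRCm38 with HISAT2 (2.0.4 in the submitters' processing notes), removed duplicates with Picard and counted reads per gene of Ensembl release 69 with featureCounts, with a strand setting that the methods do not give. The deposited values are raw counts of 41388 genes, 40254 with a symbol, with 92 spike-in controls at 0 reads that were left out. The counts come in 2 forms, per sample and as a table, which differed in 0 cells, and 0 columns were left unused. Totals had a median of 19469782.5 reads.

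Groups and replicate numbers come from the labels. For each day, genes that had 10 or more reads in 4 or more of the 8 hearts were normalized by TMM and tested by edgeR 4.0.16's quasi-likelihood test (R 4.3.3) with Benjamini-Hochberg adjustment over all genes tested. Differences between days were tested in 1 fit of 24 hearts. Alternatives were other tests (limma 3.58.1, DESeq2 1.42.0), scalings, filters and control sets, a replicate block and leaving out each heart. The test was tried on simulated counts in which genes were changed 4-fold. It recovered 86.5% of 192 genes at D10 (14893 genes in all), 94.2% of 191 at D15 (15531), 87.6% of 194 at D21 (15112) and 76% of 200 for the difference of effects between D10 and D15 (16074), with 3, 0, 4 and 0 false calls. Counts were drawn for each gene on its own, without shifts that many genes of a heart share. The shares recovered are therefore no measure of what the test could find in the real hearts.

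The labels do not say what the replicate numbers mark. All 4 pairs of same-numbered EAM and control hearts had an r of deviations above 0.1 only at D21, where it was 0.107, 0.179, 0.319 and 0.259 for numbers 1 to 4. At D10 it was 0.384, -0.0887, -0.102 and 0.432, and at D15 0.0419, -0.0903, -0.0298 and -0.105. Hearts with different numbers were not compared in this way, so these r cannot show whether the D21 numbers mark pairs. In both D21 groups the mean log2(CPM + 1) of the monocyte and macrophage markers was lowest in heart 3 and highest in heart 4. These means were 4.29 and 4.93 in controls and 5.5 and 7.5 in EAM hearts. The part of this shared order in the r was not tested. The quasi-likelihood test of each day took the hearts as unpaired, and the replicate block was only an alternative.

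The members and gene lists were chosen with earlier results of these data known. Named from each list are the 2 genes with the largest and the 2 with the smallest log2 fold change at D15, and known partners of members (Tyrobp, Cd44, Itgav, Itgb3, Lrp1, Abca1, Cd36, Fabp3, Fabp4, Lgals1, Lgals3bp and Cd81). Ptprc, Cd68, Csf1r and Adgre1 stand for leucocytes and macrophages. Some genes that this rule names are not reported here. Coordinates come from GENCODE M21 on GRCm38. p-values measure the spread among these hearts.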

Additional observations from a re-analysis of the deposited data

Results flagged for a closer look

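In 11 of 59 groups of 4 hearts with values for a member, 1 heart lay farther from the others than Dixon's critical value for 4 samples allows, where chance gives about 3. Control heart 1 of D10 was apart in Trem2 (15.4 CPM), Gpnmb (26.6 CPM) and Spp1 (14.7 CPM). Control heart 3 of D15 was apart in Gpnmb (19.7 CPM) and Spp1 (6.01 CPM). EAM heart 1 of D10 was apart in Lgals3 (120.3 CPM) and control heart 3 of D10 in Cd9 (66.1 CPM). For Marco the hearts apart were control heart 2 of D10 (0.0512 CPM), EAM heart 1 of D10 (0.0884 CPM) and control heart 3 of D15 (0.0518 CPM), where 1 or 2 reads stood against 0 in the others, so that these 3 are set apart by construction, and EAM heart 1 of D21 (1.73 CPM).

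The effect of EAM differed between D10 and D15 by the test of the difference for Trem2 (3.01 on the log2 scale), Spp1 (4.92), Lgals3 (3.28) and Apoe (1.28).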

How the results depend on the processing

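At D10, where the quasi-likelihood test induced 0 members, DESeq2, the exact test and the likelihood ratio test gave 1 each and all 12 controls 4. At D21, where it induced 6, limma-voom gave 1 and leaving out 1 heart gave 0 to 7, in fits that induced 0 to 1565 of 15266 genes (630 with all hearts). Members whose effect differed between D10 and D15 numbered 4, and 1 to 6 without 1 heart. Between D10 and D21 they numbered 0, with 2 by the likelihood ratio test and 0 to 2 without 1 heart. Relative to macrophage genes at D10, 1 member did not overlap, and 2 did not with a pseudocount of 0.1. Among the log2 fold changes of single members within a day and their values relative to macrophage genes, signs turned at D10, for Gpnmb (-0.73 without EAM heart 2, with a range of -0.73 to 2.68 without 1 heart) and Apoe (-0.04 to 0.17), and at no other day. The cause was not tested. The fit with the replicate block gave 5 members at D21 and changed no call there but that of Spp1 (5.98, and 5.92 with the later form of the test), while at D15 it gave 6, with Cd9 at 0.97. At D10 the block gave 0. Cd9 at D15 lay under 2-fold in 8 alternatives. Of the values of single genes under the alternatives, 558 kept direction and call, 52 lost a call and 24 gained one, and 5 (Olr1 and Marco relative to macrophage genes) moved with the pseudocount. The later form of the quasi-likelihood test and the likelihood ratio test without each heart were added after seeing the data. Low counts limit Marco and the controls of Olr1.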
